A study of Homo sapiens with 6 samples.

Results

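AT-rich open chromatin between genes was examined in MCF10A cells, a non-tumorigenic human mammary epithelial line, by ATAC-seq, in which the transposase Tn5 inserts sequencing adapters into accessible DNA. Overlapping or touching open regions of the 6 libraries on chromosomes 1 to 22 and X were joined into 49519 merged regions. A merged region was kept when its centre lay outside every GENCODE 44 gene (14334 regions), when that centre was also 2 to 100 kb from the nearest protein-coding gene start (8378 regions), and when the GC content of its hg38 sequence was below 45%. This left 3248 regions, or 6.56% of all merged regions, referred to below as AT-rich intergenic regions. Of these, 3051 lay wholly outside genes.

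The study asked how the labile zinc pool of the cell relates to chromatin accessibility. Wild-type MCF10A cells were kept for 30 min in a Hanks salt solution buffered with HEPES and free of phosphate, and then for 30 min with 50 μM TPA, with 30 μM ZnCl2 or without either agent, and each of the 3 groups had 2 libraries. TPA is tris(2-pyridylmethyl)amine, a zinc chelator, and not the phorbol ester that shares the abbreviation, while ZnCl2 supplies zinc. All groups share the phosphate-free saline, and all cells come from 1 line. The methods call the replicates biological and the results section calls them technical, so p-values below measure only the spread between these lists.

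Open regions far from gene starts include enhancers, which are stretches of DNA bound by transcription factors that act on promoters at a distance. In epithelial cells many such regions carry sites for AP-1, the dimer of FOS and JUN proteins, and for TEAD factors, the DNA-binding partners of YAP and TAZ. MTF1, the zinc-responsive factor, binds metal response elements, which are GC-rich. The nearest gene start is used here only to name a region, and it need not be the gene that the region acts on.

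Sequences of 9 AT-rich intergenic regions that the results below turn on are shown first. They are the central 200 bases of each merged region on the plus strand of hg38, in lower case, with each match to the AP-1 motif TGANTCA in capitals. The regions near DCAF12L1, PROC and CCL28 head their classes under the naming rule. IQSEC3 is shown in place of FAM104B, which ranked first among regions gained with ZnCl2, because its window holds an AP-1 match, and PHLDA1 in place of ZNF705G, which had the widest gap upwards with TPA. The ESR1, AREG, EGFR and CCN1 regions were added after their values were seen. The ZNF543 window that the rule also names is not shown, because that merged region is nearly all 1 wide TPA call. The DCAF12L1 region scored highest over all libraries, the PROC, ESR1 and AREG regions were called in both TPA libraries and in neither untreated library, the IQSEC3 region was called in both ZnCl2 libraries and in neither untreated library, and the CCL28 and EGFR regions were called in both untreated libraries and in neither ZnCl2 library. The PHLDA1 and CCN1 regions were called in all 6 libraries.
DCAF12L1 region, chrX:126472626-126472825: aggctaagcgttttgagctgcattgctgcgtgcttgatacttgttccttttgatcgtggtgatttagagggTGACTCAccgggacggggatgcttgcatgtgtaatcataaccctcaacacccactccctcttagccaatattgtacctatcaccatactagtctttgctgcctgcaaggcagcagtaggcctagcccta
PROC region, chr2:127411596-127411795: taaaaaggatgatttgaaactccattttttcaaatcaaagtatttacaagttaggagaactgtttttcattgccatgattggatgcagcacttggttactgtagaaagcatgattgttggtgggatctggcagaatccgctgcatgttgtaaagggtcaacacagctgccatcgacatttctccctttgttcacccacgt
ESR1 region, chr6:151627806-151628005: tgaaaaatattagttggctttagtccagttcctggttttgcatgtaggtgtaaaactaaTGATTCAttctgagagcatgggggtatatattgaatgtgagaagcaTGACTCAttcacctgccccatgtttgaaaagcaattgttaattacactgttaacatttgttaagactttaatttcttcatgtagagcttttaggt
AREG region, chr4:74503901-74504100: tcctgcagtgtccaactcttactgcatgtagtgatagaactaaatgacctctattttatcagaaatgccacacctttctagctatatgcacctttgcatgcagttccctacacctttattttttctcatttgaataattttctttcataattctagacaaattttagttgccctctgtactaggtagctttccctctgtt
IQSEC3 region, chr12:40556-40755: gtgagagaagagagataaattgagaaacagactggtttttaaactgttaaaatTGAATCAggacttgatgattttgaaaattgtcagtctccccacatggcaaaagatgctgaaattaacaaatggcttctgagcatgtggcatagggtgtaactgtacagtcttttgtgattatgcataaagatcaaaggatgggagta
CCL28 region, chr5:43432811-43433010: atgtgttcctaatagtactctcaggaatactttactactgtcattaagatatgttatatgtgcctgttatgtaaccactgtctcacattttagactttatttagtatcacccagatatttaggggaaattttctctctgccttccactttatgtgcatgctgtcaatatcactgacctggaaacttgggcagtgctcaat
EGFR region, chr7:54967726-54967925: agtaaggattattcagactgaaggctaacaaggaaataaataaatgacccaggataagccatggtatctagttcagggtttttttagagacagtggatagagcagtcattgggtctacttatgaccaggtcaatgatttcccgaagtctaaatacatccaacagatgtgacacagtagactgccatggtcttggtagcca
PHLDA1 region, chr12:76020496-76020695: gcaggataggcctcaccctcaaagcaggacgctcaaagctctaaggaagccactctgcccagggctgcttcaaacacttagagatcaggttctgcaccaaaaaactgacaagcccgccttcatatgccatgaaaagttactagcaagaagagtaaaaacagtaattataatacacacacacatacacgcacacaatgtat
CCN1 region, chr1:85612326-85612525: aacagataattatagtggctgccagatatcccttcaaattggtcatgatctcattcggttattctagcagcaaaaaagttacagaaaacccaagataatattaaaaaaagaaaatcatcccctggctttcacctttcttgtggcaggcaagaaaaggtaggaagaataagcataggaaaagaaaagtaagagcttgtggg

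Of these 9 windows, the ESR1 window held 2 AP-1 matches, the DCAF12L1 and IQSEC3 windows held 1 each, and the other windows held none. In the central 300 bases the PHLDA1 region matched the FOX motif TGTTTAC, and the AREG, EGFR and ESR1 regions matched the metal response element TGCNCNC. The PROC, CCL28 and CCN1 regions matched none of the 11 motifs searched. A match says only that these letters occur in the window.

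The 6 lists differed in length, from 18883 calls in ZnCl2 replicate 2 to 44637 calls in untreated replicate 2, and read depth is unknown because the files hold no counts. The calls covered between 35.6 and 94.2 Mb of the genome. No score lay below 30. The kind of score is not named by the authors, so each call was ranked by its score percentile, the share of calls in the same list with a lower score. As a check of the cell type, between 4 and 9 of 10 basal mammary genes had an open region within 1 kb of the gene start in each library, and ITGA6, ITGB4 and LAMB3 were among those with one in all 6. The annotated start of TP63 had none in any library. The starts of KRT5, KRT14, KRT17, LAMA3 and EGFR had none in ZnCl2 replicate 2, the shortest list, and that of KRT14 also had none in untreated replicate 1. Of the luminal genes FOXA1 had one in all 6 libraries, and the starts of ESR1, PGR and PRLR had none. Of the blood genes CD14 had one in all 6, while PTPRC, CD3D and SPI1 had none. Among markers of fibroblasts, endothelium, neurons and hepatocytes, COL1A1 had one in all 6 libraries, SYT1 and APOA1 in 5 and PDGFRA in 2, while COL3A1, PECAM1, CDH5, SNAP25, RBFOX3 and ALB had none.

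AT-rich intergenic regions were short, came with low scores and recurred in few libraries. Their median merged width was 1390 bp, with quartiles of 990 and 1920 bp, against 1760 bp for the 5130 GC-rich intergenic regions at the same distance from genes and 1420 bp for the 6934 AT-rich regions inside introns. Their median GC content was 41.4%, and their median distance to the nearest gene start was 31609.5 bp. The gene start lay downstream of 76.5% of them, against 70.6% of GC-rich intergenic regions. Centres inside genes were left out, so positions in the gene body past a start could not enter either class. The observed-to-expected ratio of CpG dinucleotides had a median of 0.179, against 0.257 in GC-rich intergenic regions and 0.185 in AT-rich intronic regions. On this measure the 2 AT-rich classes lay close together.

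Of the 3248 regions, 536 (16.5%) were called in all 6 libraries and 686 (21.1%) in a single library. Over all merged regions the corresponding shares were 32% and 16.7%. GC-rich intergenic regions were called in all 6 libraries in 26.4% of cases, and AT-rich intronic regions in 16.8%. The AT-rich intergenic regions called in 1 library came mostly from the longest lists, with 316 from untreated replicate 2, 204 from TPA replicate 2 and 109 from ZnCl2 replicate 1. TPA replicate 1 gave 53, ZnCl2 replicate 2 gave 4 and untreated replicate 1 gave 0.

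Libraries of 1 group did not share more of these regions than libraries of different groups as long as list length differed. Of the AT-rich intergenic regions called in either of a pair of libraries, the pairs within a group shared 40.5% (untreated), 73.4% (TPA) and 34.6% (ZnCl2), and the pairs between groups 23.1% to 74%. With the same number of calls from each library, taken from the top of each list, the pairs within a group shared 61.5%, 69.5% and 60.9%, and the pairs between groups 45.8% to 63.6%. The TPA pair then shared more than any pair between groups, while the other 2 pairs lay within their range. The lowest values, 45.8% to 48.2%, were those between TPA and ZnCl2 libraries.

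Merged width grew with the number of libraries, from a median of 820 bp for regions called in 1 library to 2135 bp for those called in all 6. A merged region spans all calls joined in it, so calls from more libraries cannot make it narrower. The median of the mean score percentile also grew with the number of libraries, from 9.28 to 60.7. The share with an AP-1 match did not follow this order. It was 39.9% for regions called in 1 library, 34.3% for 2, 37.6% for 3, 43.8% for 4, 39.8% for 5 and 36.2% for 6. Over all merged regions the AP-1 share was 33.1% for regions called in 1 library and 17.5% for those called in all 6.

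**Figure D1:**
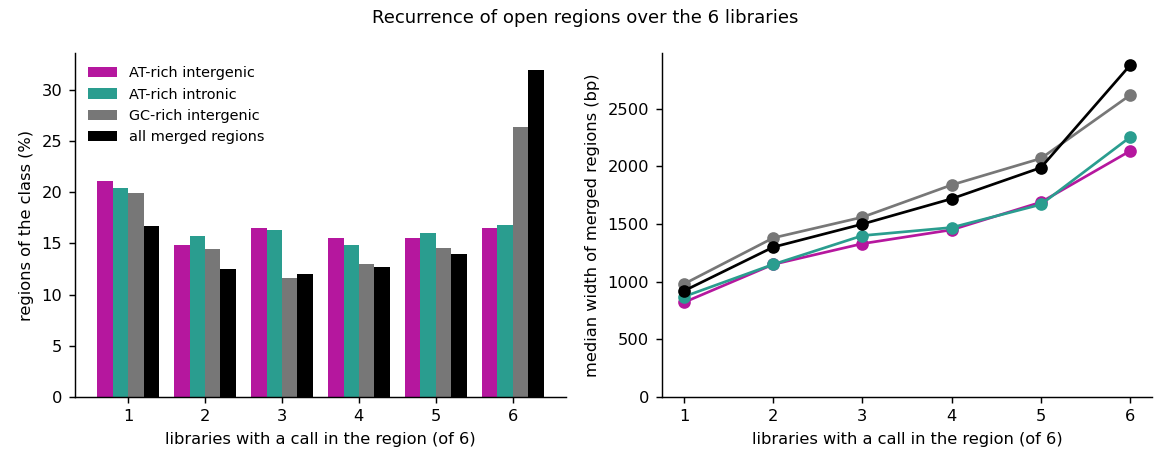
Left, the percentage of regions of each class (bars) called in 1 to 6 libraries. Right, the median merged width in bp by number of libraries (points joined by lines). A merged region spans all its calls, so calls from more libraries cannot make it narrower. AT-rich intergenic regions were called in all 6 libraries in 16.5% of cases against 32% of all merged regions, and their median width grew from 820 to 2135 bp.

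A small group of AT-rich intergenic regions was very wide. The widest spanned 51400 bp, and 102 were wider than 10 kb. Each of these 102 held at least 1 individual call over 10 kb. Such calls came from TPA libraries alone in 99 of them, and from TPA replicate 2 alone in 87. TPA replicate 2 had 95 such calls among AT-rich intergenic regions, TPA replicate 1 had 15, untreated replicates 1 and 2 had 2 and 1, and both ZnCl2 replicates had 0. Over all regions TPA replicate 2 had 997 calls over 10 kb and the other libraries 28 to 155. The centre of such a region can lie far from the calls of the other libraries.

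The first comparison was between AT-rich intergenic regions and the other classes, and each library gave 1 value per class. The median width of calls was 910 and 1350 bp in untreated replicates 1 and 2, 920 and 830 bp in the TPA replicates, and 1060 and 1560 bp in the ZnCl2 replicates. In GC-rich intergenic regions it was 1070, 1710, 1060, 990, 1320 and 1790 bp in the same order. Calls in AT-rich intergenic regions were thus narrower in 6 of 6 libraries, with a mean difference of -218.3 bp (SD 83.5, n = 6, range -360 to -140 bp, two-sided exact paired permutation p = 0.0312, the smallest that 6 libraries allow). Adjusted over the 8 class comparisons by the Benjamini-Hochberg method the exact p was 0.0625, which misses 0.05.

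The median score percentile of called AT-rich intergenic regions was 34.2 and 37.9 in the untreated libraries, 38.5 and 40.1 in the TPA libraries, and 34.5 and 28.7 in the ZnCl2 libraries. All 6 values were below those of GC-rich intergenic regions, which ran from 41.2 to 46.9. The mean difference was -8.06 percentile points (SD 2.75, n = 6, exact permutation p = 0.0312, adjusted p = 0.0625). Between 2.96% and 4.65% of called AT-rich intergenic regions ranked at or above the 90th percentile of their list, while for all merged regions this share was 9.97% to 10.3%.

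AT-rich intronic regions gave values close to those of AT-rich intergenic regions. Their calls were wider by 10 to 40 bp in 6 of 6 libraries, with a mean difference of -25 bp (SD 10.5, n = 6, exact permutation p = 0.0312, adjusted p = 0.0625). The difference in median score percentile was -0.726 (SD 1.33, n = 6, range -3.29 to 0, exact permutation p = 0.5, adjusted p = 0.562). The share of called regions that were also called in the other library of the group averaged 73.8% for AT-rich intergenic, 74% for AT-rich intronic and 76.9% for GC-rich intergenic regions. The exact permutation test gave p = 0.562 (adjusted p = 0.562) against AT-rich intronic and p = 0.188 (adjusted p = 0.3) against GC-rich intergenic regions. The 2 libraries of a group count the same shared regions, so the 6 values are not independent. No conclusion is drawn from these p-values.

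The AP-1 motif was the most frequent of the 11 motifs searched in these regions. A match lay in the central 300 bases of 1256 of 3248 AT-rich intergenic regions (38.7%), of 39.4% of AT-rich intronic regions, of 23.7% of GC-rich intergenic regions and of 27% of all merged regions. Among called AT-rich intergenic regions the share was 38.8% and 37.7% in the untreated libraries, 39.5% and 41.2% in the TPA libraries, and 36.7% and 35.3% in the ZnCl2 libraries. In GC-rich intergenic regions it was 21.1% to 26.3%. The difference of 14.7 percentage points (SD 0.592, n = 6, range 13.9 to 15.3) was positive in 6 of 6 libraries, and against AT-rich intronic regions the difference was 0.268 percentage points (SD 0.684, n = 6). Both are given as a description without a p-value, though both count among the 8 class comparisons of the adjustment. A match is a fixed property of a merged region, and the classes were split on the GC content of the same sequence. The libraries also call overlapping sets of regions.

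The motif leans to A and T, and the 2 intergenic classes were separated by GC content, so base composition moves with this difference, and its part in it was not tested. Matches were more frequent near the centre than far from it. In 50-bp bins, the higher of the 2 central bins held a match in 8.59% of AT-rich intergenic regions, and the bins 1200 to 1500 bp from the centre held one in 1.89% on average. In GC-rich intergenic regions the same values were 4.99% and 1.48%. A window of 300 bp in those outer bins held a match in 10.6% of AT-rich and 8.38% of GC-rich intergenic regions.

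**Figure D2:**
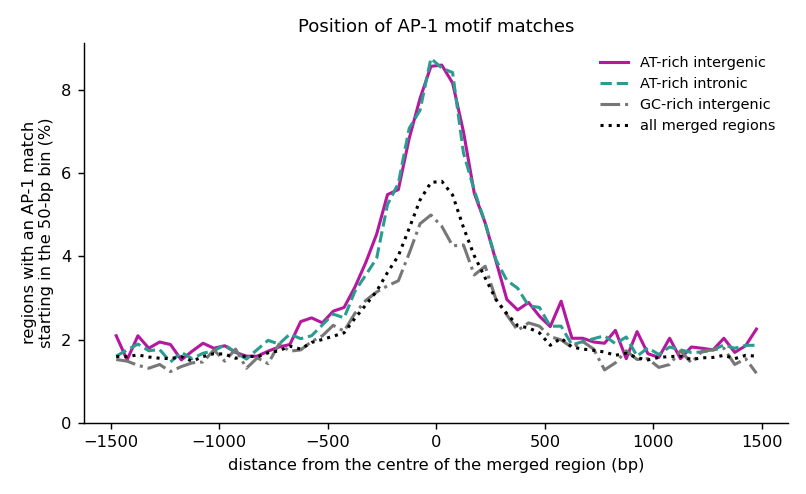
Percentage of regions with a match to the AP-1 motif in each 50-bp bin (vertical axis) by distance from the centre of the merged region in bp (horizontal axis), for 4 classes of region (lines). AT-rich intergenic and AT-rich intronic regions peaked at 8.59% and 8.75%, above GC-rich intergenic regions at 4.99%, and averaged 1.89% and 1.75% from 1200 to 1500 bp.

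Other motifs were searched on both strands in the same 300 bases. The TEAD motif GGAATG matched in 23.1% of AT-rich intergenic and 19.1% of all merged regions, the RUNX motif TGTGGTT in 8.31% and 6.98%, the FOX motif TGTTTAC in 6.19% and 4.02%, and the C/EBP motif TTGCNNCAA in 3.33% and 2.51%. In AT-rich intronic regions the shares were 21.6% for TEAD, 9.69% for RUNX, 5.78% for FOX and 3.12% for C/EBP. RUNX proteins are the DNA-binding subunits of core-binding factor, FOX proteins are forkhead factors, and C/EBP proteins are basic leucine zipper factors. Motifs of GC-rich letters, which the GC limit disfavours, were rarer here than over all merged regions: the SP/KLF motif GGGCGG at 2.96% against 19.5%, and the metal response element TGCNCNC at 35% against 48.7%. AT-rich intronic regions were again close, with 2.61% for SP/KLF and 34.3% for the metal response element. The CTCF core pattern matched in 1.57% of AT-rich intergenic and 1.51% of all merged regions, the CRE motif TGACGTCA in 0.369% and 0.46%, the GRHL motif AACCNGGTT in 0.185% and 0.242%, and a pair of p53 family half-sites in 0.0308% and 0.0444%. The CTCF core share was 4.17% in GC-rich intergenic and 0.764% in AT-rich intronic regions.

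AP-1 and TEAD matches occurred together in 297 AT-rich intergenic regions. A TEAD match was found in 23.6% of regions with an AP-1 match and in 22.7% of those without. For RUNX the shares were 8.92% and 7.93%. Regions with an AP-1 match were called in 3.39 libraries on average, and so were regions without one. Their median width was 1250 bp, against 1510 bp without a match.

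Close to the GC limit the classes ran into each other. Of intergenic regions at this distance, the 475 with GC content from 44% to 45% had a median width of 1530 bp, were called in all 6 libraries in 21.3% of cases and held an AP-1 match in 29.5%. The 514 regions just above the limit, from 45% to 46%, had 1565 bp, 22.6% and 33.1%. At the other end, 218 regions below 36% GC had a median width of 1020 bp, were called in all 6 libraries in 5.5% of cases and held an AP-1 match in 50%. By distance from the gene start, the AP-1 share was 37.7% for the 531 regions 2 to 10 kb away, 38.2% for 1031 regions 10 to 30 kb away and 39.3% for 1686 regions 30 to 100 kb away. Calls in all 6 libraries were 21.5%, 14.6% and 16.1% of these.

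The comparison of treatments asked whether zinc depletion or zinc addition moved these regions. With all calls, AT-rich intergenic regions held 1183 and 2856 calls in the untreated libraries, 2174 and 2669 in the TPA libraries, and 1853 and 672 in the ZnCl2 libraries. The untreated values lay on both sides of the TPA values. The TPA mean was 2421.5 ± 350.0 (SD, n = 2), the untreated mean 2019.5 ± 1183.0 and the ZnCl2 mean 1262.5 ± 835.1, and neither difference exceeded the spread between lists (exact permutation p = 1 for TPA and p = 0.667 for ZnCl2, where 2 libraries against 2 cannot go below 0.333; adjusted p = 1 and 0.762 over 8 tests). Without untreated replicate 1 the TPA difference turned from 402 to -434.5 calls, and without untreated replicate 2 the ZnCl2 difference turned from -757 to 79.5.

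As a share of the list, these calls made up 4.73% and 6.4% in the untreated libraries, 6.06% and 6.45% in the TPA libraries, and 4.87% and 3.56% in the ZnCl2 libraries. The groups overlapped for both treatments (exact permutation p = 0.667 for each, adjusted p = 0.762). Without untreated replicate 1 the difference for TPA turned from 0.691 to -0.145 percentage points. The median score percentile was higher in both TPA libraries than in both untreated libraries, with 39.3 ± 1.15 against 36 ± 2.6 (SD, n = 2), at the smallest p the design allows (exact permutation p = 0.333, adjusted p = 0.762). For ZnCl2 it was 31.6 ± 4.11, with overlapping values (exact permutation p = 0.667, adjusted p = 0.762). Median width differed by -255 bp with TPA and by 180 bp with ZnCl2, again with overlapping values (exact permutation p = 0.667 for each, adjusted p = 0.762), and the ZnCl2 difference turned to -70 bp without ZnCl2 replicate 2 and to -40 bp without untreated replicate 1.

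Because list length differed, the 18883 highest-scoring calls of each list were compared next. They held 773 and 779 calls in AT-rich intergenic regions in the untreated libraries, 880 and 927 in the TPA libraries, and 581 and 672 in the ZnCl2 libraries. The 3 groups did not overlap, with TPA highest and ZnCl2 lowest. The means were 903.5 ± 33.2 with TPA, 776 ± 4.24 untreated and 626.5 ± 64.3 with ZnCl2 (SD, n = 2, exact permutation p = 0.333 for each treatment, the smallest possible, adjusted p = 0.444).

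The median score percentile within these shortened lists was 33.9 and 32.1 in the untreated libraries, 37.3 and 42.6 in the TPA libraries, and 29.1 and 28.7 in the ZnCl2 libraries. It showed the same order without overlap (exact permutation p = 0.333 for each, adjusted p = 0.444). AT-rich intronic regions followed with 1702 and 1710 calls untreated, 1936 and 2029 with TPA, and 1215 and 1409 with ZnCl2. GC-rich intergenic regions were highest with ZnCl2, with 1654 and 1574 calls untreated, 1699 and 1612 with TPA, and 1838 and 1761 with ZnCl2.

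Base composition of the whole lists moved in the same order. The median GC content of all regions called in the shortened lists was 50.1% and 49.9% in the untreated libraries, 49.1% and 48.8% in the TPA libraries, and 51.2% and 50.7% in the ZnCl2 libraries. The part that the composition of each whole list plays in the counts above was not tested.

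**Figure D3:**
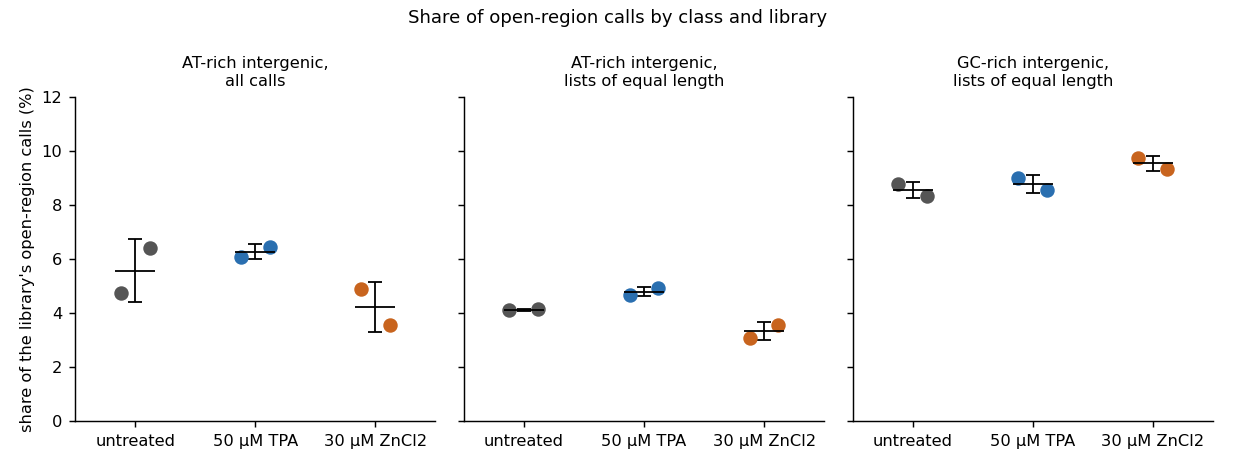
Share of a library's open-region calls (vertical axis, %) that lay in AT-rich intergenic regions with all calls (left) and with lists of equal length (middle), and in GC-rich intergenic regions with lists of equal length (right). Points are the 2 libraries of a group, and bars the mean ± SD. With equal length the AT-rich shares were 4.09% and 4.13% untreated, 4.66% and 4.91% with TPA, and 3.08% and 3.56% with ZnCl2.

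Individual regions were then followed from absence to presence. A region was called gained when both treated libraries and neither untreated library had a call there, and lost in the reverse case. With all calls, 73 AT-rich intergenic regions (2.25%) were gained with TPA against 2.04% of all merged regions, and 10 (0.308%) were lost against 0.701%. With ZnCl2, 2 regions (0.0616%) were gained against 0.172% of all merged regions, and 118 (3.63%) were lost against 1.73%. The TPA shares gained thus lay near the background, and the ZnCl2 shares lost lay above it. No test goes with these counts.

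In the shortened lists a call outside the 18883 highest-scoring calls counts as absent, so gained and lost can be shifts in rank. With lists of equal length, 1274 AT-rich intergenic regions had a call. Of these 71 (5.57%) were gained with TPA against a background of 3.79%, and 19 (1.49%) were lost against 4.58%. With ZnCl2, 30 (2.35%) were gained against 3.21%, and 100 (7.85%) were lost against 3.65%. Gains outnumbered losses with TPA, and losses outnumbered gains with ZnCl2. Over all merged regions losses outnumbered gains with both treatments, with 987 gained and 1193 lost with TPA, and 836 gained and 952 lost with ZnCl2. AT-rich intronic regions gave similar shares, with 53 (1.95%) lost and 186 (6.84%) gained with TPA, and 224 (8.24%) lost and 52 (1.91%) gained with ZnCl2. Of GC-rich intergenic regions 88 (3.56%) were lost and 112 (4.53%) gained with TPA, and 71 (2.87%) were lost and 139 (5.63%) gained with ZnCl2. Few AT-rich intergenic regions changed in the same way with both kinds of list, namely 1 gained and 0 lost with TPA, and 2 gained and 8 lost with ZnCl2.

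Leaving out a library removes a condition from the definition, so each count can then only stay or rise, and the size of the rise differed between libraries. Without TPA replicate 1 or 2, 290 or 133 regions were gained with TPA, and without untreated replicate 2, 872 were. Regions lost with TPA numbered 30 without TPA replicate 2 and 449 without untreated replicate 1. Regions gained with ZnCl2 numbered 6 and 139 without ZnCl2 replicate 1 and 2, and 4 and 80 without untreated replicate 1 and 2. Regions lost with ZnCl2 numbered 574 without ZnCl2 replicate 1 and 1108 without untreated replicate 1.

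Median width was 860 bp in the 73 regions gained with TPA, and 43.8% of them held an AP-1 match. Both values lay near those of all 1009 merged regions gained with TPA, at 940 bp and 46.2%. Of the 73 regions, 65 had no call in either ZnCl2 library and 8 had a call in 1 of them. Of all AT-rich intergenic regions called in ZnCl2 replicates 1 and 2, 92% and 98.8% were also called in untreated replicate 2. The 118 regions lost with ZnCl2 had a median width of 1440 bp and an AP-1 match in 44.9%, against 1510 bp and 37.1% for all 855 merged regions lost with ZnCl2 and 1520 bp and 39.6% for AT-rich intronic ones. Both TPA libraries had a call in 107 of them, 8 had a call in 1 TPA library and 3 in neither. Of all AT-rich intergenic regions called in untreated replicate 1, 97.4% and 98.7% were also called in TPA replicates 1 and 2. The 2 treatments share the untreated libraries. AP-1 matches did not sharply separate gains with TPA or losses with ZnCl2. Regions with a match were gained with TPA in 2.55% of cases and lost with ZnCl2 in 4.22%. For regions without one the shares were 2.06% and 3.26%. Losses with TPA were rarer with a match, at 1 region (0.0796%) against 9 (0.452%) without. Over all merged regions a match lay in 46.2% of gains with TPA and 7.49% of losses. Their median GC contents were 44.1% and 55.2%. In AT-rich intergenic regions these AP-1 shares were 43.8% and 10% with all calls, and 35.2% and 31.6% with lists of equal length.

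Changes in calls with ZnCl2 differed along the GC scale of all intergenic regions at this distance, in lists of equal length. Losses with ZnCl2 amounted to 14.2% of 212 regions from 36% to 39% GC, 6.09% of 443 regions from 39% to 42% and 6.82% of 572 regions from 42% to 45%. Above the limit they were 5.14% of 700 regions from 45% to 48% GC, 2.99% of 770 regions from 48% to 52% and 1.2% of 1000 regions from 52% up. Gains with ZnCl2 ran the other way, from 0.943% at 36% to 39% GC through 3.15% at 42% to 45% to 7.8% at 52% or more. Gains with TPA were not ordered by GC content up to 52%. In the 6 bins from 36% GC up they were 5.19%, 5.42%, 5.59%, 6.71%, 5.58% and 2.2%, and losses with TPA were 1.42%, 1.35%, 1.75%, 2.29%, 3.38% and 4.6%. The lowest bin, under 36% GC, held 47 regions with a call, of which 4 were gained with TPA and 4 lost with ZnCl2. Just below and just above the GC limit, in bins of 1%, losses with ZnCl2 were 5.96% of 218 and 5.63% of 231 regions, and gains with TPA were 5.05% and 7.79%.

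**Figure D4:**
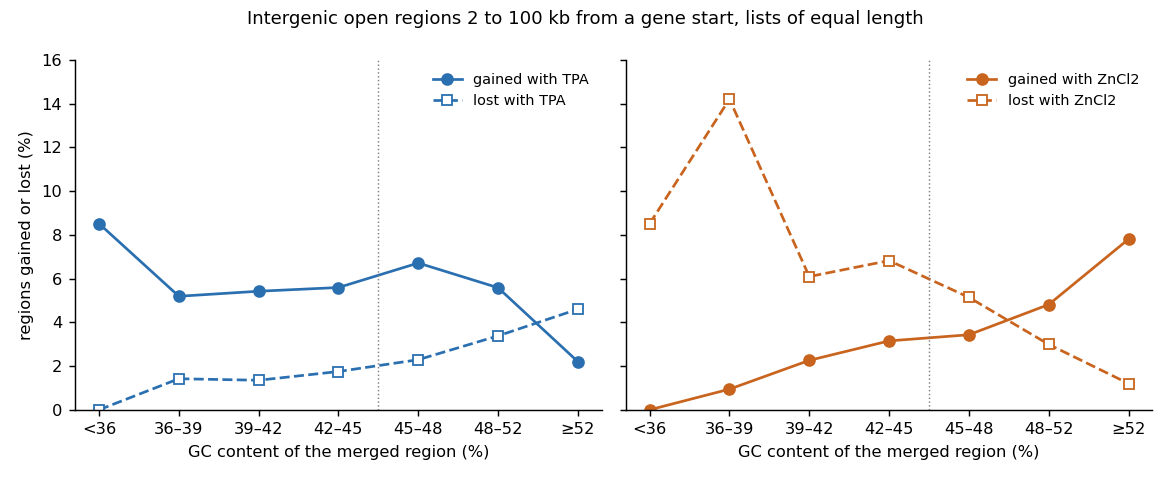
Percentage of intergenic regions 2 to 100 kb from a gene start that were gained (filled circles, solid line) or lost (open squares, dashed line) with TPA (left) and ZnCl2 (right), by GC content of the region (horizontal axis, %), in lists of equal length. A call outside the 18883 highest-scoring calls counts as absent, so gained and lost can be shifts in rank. The dotted line marks the limit of 45%. Losses with ZnCl2 were 14.2% at 36% to 39% GC and 1.2% at 52% GC or more.

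The 536 AT-rich intergenic regions called in all 6 libraries could be compared by score percentile. Their median percentile was 54.7 and 74.7 in the untreated libraries, 72.2 and 78.2 in the TPA libraries, and 62.9 and 32 in the ZnCl2 libraries. Both TPA libraries ranked above both untreated libraries in 189 of them (35.3%), against 22.9% of all 15851 regions called in all 6, and below in 19 (3.54%) against 15.8%. Both ZnCl2 libraries ranked below both untreated libraries in 175 (32.6%) against 17.6%, and above in 6 (1.12%) against 2.47%. Percentiles depend on list length, which was smallest for ZnCl2 replicate 2.

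The AT-rich intergenic region with the highest mean percentile, near DCAF12L1 on chromosome X (chrX:126472061-126473390, 80.1 kb downstream of the gene start), reached a rounded percentile of 100 in all 6 libraries. Its scores were 1794 and 2398 in the untreated libraries, 2711 and 1986 in the TPA libraries, and 4972 and 3352 in the ZnCl2 libraries. In its central window, 3 of 9 pieces of 32 bases recur elsewhere in the genome and 1 is found in the mitochondrial genome. Only 4 AT-rich intergenic regions held such a mitochondrial piece. The others lay near FAM104B, RNF141 and PRSS1, and every call in them ranked at 99.2 or above. The RNF141 region was called in untreated replicate 1 and TPA replicate 1, and the PRSS1 region in ZnCl2 replicate 2. These regions were named after their values were seen, and the part of mitochondrial reads in their calls was not tested.

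The next regions in rank lay on chromosome 1. A region of 25910 bp near PPP1R12B, which encodes a myosin phosphatase subunit, ranked between 98.9 and 99.7 in all libraries. A region of 4920 bp 15.5 kb upstream of SYT14, a synaptotagmin gene, ranked between 95.2 and 99.7. Regions of 22290 bp near ANGEL2, of 19410 bp near KLHL12, a substrate adaptor of a ubiquitin ligase, and of 34330 bp near COX20, which acts in cytochrome c oxidase assembly, ranked between 96.4 and 99.7. The regions near PPP1R12B, ANGEL2, KLHL12 and COX20 owed most of their width to calls of 18460, 21660, 19410 and 23010 bp in TPA replicate 2, while the ZnCl2 calls there spanned 1520 to 7800 bp.

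A single AT-rich intergenic region was gained with TPA with both kinds of list. It lay 6.73 kb upstream of PROC, the gene of the anticoagulant protein C (chr2:127410691-127412700, 38.9% GC). Its percentile was 48.6 in TPA replicate 1 and 57.3 in TPA replicate 2, and the untreated and ZnCl2 libraries had no call. The 2 regions gained with ZnCl2 were the FAM104B region (chrX:55182941-55183500), with percentiles of 99.8 and 99.2, and a region 26.1 kb upstream of IQSEC3 (chr12:40331-40980), with 82.9 and 74. In the IQSEC3 window 8 of 9 pieces of 32 bases recur in the genome, and in the FAM104B window 2 do. With repeated windows left out, 0 regions were gained with ZnCl2.

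Of the 8 regions lost with ZnCl2 with both kinds of list, the naming rule took 3. The region 20.5 kb upstream of CCL28, a chemokine gene (chr5:43431931-43433890), had percentiles of 58.9 and 59 in the untreated libraries and 71.3 and 81 in the TPA libraries. The region 23.1 kb upstream of CAMK2D, which encodes a calcium and calmodulin-dependent kinase (chr4:113784521-113785590), had 45.2 and 60.1 untreated and 79.3 and 84.3 with TPA. The region 87.3 kb upstream of LRP1B, a receptor of the LDL receptor family (chr2:142217581-142219020), had 45.2 and 72.7 untreated and 59.4 and 72.1 with TPA. None of these 3 had a call in either ZnCl2 library, and none held a repeated piece.

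Among regions called in all 6 libraries, the gap between treated and untreated percentiles was widest with ZnCl2. The region 90.7 kb upstream of KCTD3 (chr1:215475011-215478170) stood at 74.5 and 82.6 untreated, at 87.9 and 91.4 with TPA, and at 9.9 and 25.3 with ZnCl2. Both ZnCl2 libraries were thus at least 49.2 percentile points below both untreated libraries. A region 9.16 kb upstream of ZNF705G on chromosome 8 had the widest gap upwards with TPA, with 34.2 and 48.4 untreated and 84.2 and 81.7 with TPA, and 6 of its 9 pieces recur in the genome.

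The region 11.2 kb downstream of the start of PHLDA1, a pleckstrin homology-like domain gene (chr12:76019491-76021700) stood at 24.2 and 54.6 untreated, at 83.6 and 87.4 with TPA, and at 34.5 and 21.6 with ZnCl2. In the other direction, the region 70.4 kb upstream of SVIL, the gene of the actin-binding protein supervillin (chr10:29806561-29808200), stood at 54.7 and 60.1 untreated and at 43.4 and 38.3 with TPA. The region near LSR was at 62.6 and 83.7 untreated and at 48.6 and 34.3 with TPA. Higher percentiles with ZnCl2 were found near ZNF543, with 81.7 and 85 untreated and 93.3 and 90.2 with ZnCl2, and near C1GALT1C1, with 64.5 and 75.3 untreated and 85.8 and 79.5 with ZnCl2. The merged regions near LSR, ZNF543 and C1GALT1C1 took their width from single calls of 18870, 28720 and 25570 bp in TPA replicate 2.

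**Figure D5:**
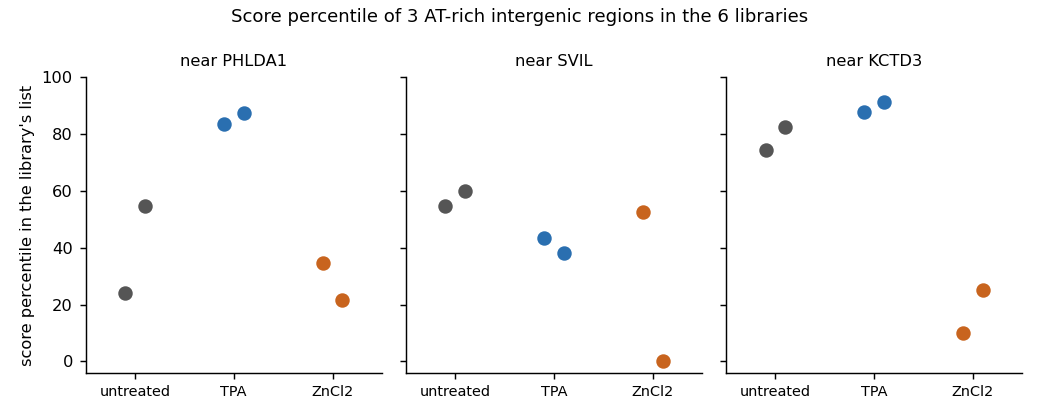
Score percentile in the library's own list (vertical axis) of the AT-rich intergenic regions near PHLDA1, SVIL and KCTD3 in the 6 libraries (points, 2 per group). The KCTD3 region stood at 9.9 and 25.3 with ZnCl2, and at 74.5 and 82.6 in the untreated libraries.

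The nearest genes show where these regions gather. In all, 2146 of 19962 protein-coding genes (10.8%) were the nearest to at least 1 AT-rich intergenic region, 1438 were nearest to exactly 1, and 34 were nearest to 5 or more. EDN1, which encodes the vasoconstrictor peptide endothelin 1, had the most with 8, lying 20.9 to 81.7 kb from the gene start. Of these, 2 and 7 were called in the untreated libraries, 5 and 8 in the TPA libraries, and 2 in each ZnCl2 library. AREG, the gene of the EGF receptor ligand amphiregulin, had 7 regions, of which 0 and 5 were called untreated, 4 and 6 with TPA, and 2 and 0 with ZnCl2. SETBP1 also had 7, with 1 and 7 called untreated, 6 and 6 with TPA, and 3 and 0 with ZnCl2. For each of these genes the highest count was in untreated replicate 2 or TPA replicate 2, the 2 longest lists. Over all AT-rich intergenic regions, 34.9% and 85.5% were called in the untreated libraries. The shares were 64.2% and 79.1% in the TPA libraries, and 55.2% and 20.1% in the ZnCl2 libraries.

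ANXA1, the gene of the phospholipid-binding annexin A1, CD180, CDC42EP3, which encodes a CDC42 effector, COL5A2, a fibrillar collagen gene, FASLG, the gene of the FAS ligand, and PTHLH, which encodes parathyroid hormone-related protein, had 6 regions each. The ANXA1 regions were called 2 and 6 times untreated, 5 and 6 times with TPA, and 3 and 1 times with ZnCl2. The PTHLH regions were called 3 and 6 times untreated, 5 and 6 times with TPA, and 4 and 0 times with ZnCl2. ACSL3, CCBE1 and CD28 had 5 each. CD180, FASLG and CD28 are best known from immune cells, and whether these cells express them was not tested.

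Gene lists for this cell type and treatment, together with blood and neuron lists for other cell types, were described by the same counts, with 10.8% of all protein-coding genes having such a region as the reference. Of 12 EGF family genes, which encode receptors of the ERBB family and their ligands, 5 had one (41.7%), with 14 regions in all. The EGFR region lost with ZnCl2, 51.2 kb upstream of the gene start (chr7:54966991-54968660), had percentiles of 4.6 and 49.7 untreated and 59.4 and 51.8 with TPA. The AREG region gained with TPA (chr4:74503481-74504520) had 3.39 and 30.1 in the TPA libraries. Both regions near NRG1, a gene of neuregulin ligands, were gained with TPA, with median percentiles of 13 and 10.4, and each held a repeated piece.

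Of 14 genes of YAP and TEAD signalling 5 had a region (35.7%), and 3 of their 7 regions were called in all 6 libraries. The CCN1 region, near a classical YAP target (chr1:85611151-85613700, 31.7 kb downstream of the start), had percentiles of 45.2 and 84.5 untreated, 84.7 and 88.4 with TPA, and 76.8 and 66.6 with ZnCl2. A region near ANKRD1, another YAP target, held an AP-1 match and had 0 and 48.4 untreated, 46.9 and 69.1 with TPA, and 45.1 and 17.9 with ZnCl2. VGLL3 had 3 regions.

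Of 22 basal epithelial genes 8 had a region (36.4%), with 3 near TP63, the basal lineage factor, and 2 each near CAV1 and EHF. All 3 TP63 regions were called in untreated replicate 2 and in both TPA libraries, and 1 in each of the other libraries. The EHF region gained with TPA had percentiles of 15.9 and 32.2. Of 12 luminal genes 3 had a region (25%), each with 1: the ESR1 region with its 2 AP-1 matches was gained with TPA at percentiles of 6.79 and 27.9, the GATA3 region was called in 5 libraries, and the PRLR region in untreated replicate 2 alone. Of 14 genes of TGF-beta signalling and matrix 3 had a region (21.4%), with 5 near TGFBR2, 4 near FN1 and 1 near SKIL. Of those 10 regions, 2 and 10 were called untreated, 7 in each TPA library, and 3 and 0 with ZnCl2. Over all AT-rich intergenic regions the shares called were 34.9% and 85.5% untreated, 64.2% and 79.1% with TPA, and 55.2% and 20.1% with ZnCl2.

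Of 31 zinc-handling genes 4 had a region (12.9%), near the reference share. SLC39A10, a zinc importer, had 4 regions, and SLC30A1, the zinc exporter of the plasma membrane, had 3. The SLC30A1 regions were called in every library except that ZnCl2 replicate 2 had 1 of 3, and their median percentiles were 47.9 and 69 untreated, 59.4 and 76.5 with TPA, and 52.5 and 38.5 with ZnCl2. A metallothionein gene, MT1X, had 1 region, called in ZnCl2 replicate 1 alone at a percentile of 9.9. No region near a zinc-handling gene met the definition of gained or lost with either treatment.

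Of 12 AP-1 genes only BATF3 had AT-rich intergenic regions, and its 2 regions were called in all 6 libraries without holding an AP-1 match. Of 8 blood genes PTPRC and CD14 had a region (25%), with 3 regions in all, and of 6 neuronal genes NEUROD1 had 1. The PTPRC regions were called at percentiles of 12.6 or below, and 1 of the 2 was gained with TPA. The NEUROD1 region was lost with ZnCl2 and had percentiles of 34.2 and 39.5 untreated and 37.4 and 25.7 with TPA. The shares of these lists rest on few genes, and no test was made of them.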

How the data were processed

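ATAC-seq was done on 6 MCF10A libraries, 2 for each of 3 groups taken from the treatment and title labels, following the OMNI protocol. Adapter trimming by the authors used BBDuk and alignment to hg38 used HISAT2 2.1.0, alongside SAMtools 1.8 and FastQC 0.11.8. They combined the sequencing runs of a library and called open regions in each library with HMMRATAC, whose version is not given in the sources used here. The deposited lists give a position and a score per region, and the authors do not name the kind of score. They precede the authors' muMerge and blacklist steps, which were not applied here. The count test of the methods needs reads and was not run.

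Calls on chromosomes 1 to 22 and X were merged (1 bp overlap or touching), annotated with GENCODE 44 and read from hg38. Motifs were searched in the central 300 bases. Each score was turned into the percentage of the same list with a lower score. The 9 pieces of 32 bases per window were counted over the genome. Python 3.11.15, NumPy 2.4.6, pandas 2.3.3, SciPy 1.17.1, Numba 0.67.0 and Matplotlib 3.10.9 were used. Merging was checked against bedtools 2.31.1 and the tests against SciPy on simulated data. Treatments were compared by two-sided exact permutation tests, classes by exact sign-flip permutation tests over libraries, with Benjamini-Hochberg adjustment over 8 tests each. With no counts the depth is unknown, and list length is the only measure of yield.

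Named were the 6 regions with the highest mean percentile called in all 6 libraries, up to 3 per change found with all calls and with equal lists, the 2 widest percentile gaps per treatment and direction, the 12 genes nearest to the most regions, and up to 3 genes per list; some items these rules name are not reported here. Alternatives were lists of equal length, the upper 50% of each list, GC below 40%, 10 kb as the smallest distance, transcript starts, whole regions outside genes, other AP-1 windows, each library left out and a replicate block. Windows without repeated pieces, regions of at most 10 kb and a crossed block were added after seeing the data. The regions and lists were chosen with earlier results of these data known.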

Additional observations from a re-analysis of the deposited data

How the results depend on the processing

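Of the 16 differences, 8 reversed in at least 1 alternative, and all 4 counts of gained or lost regions moved by over 1.5 times in at least 1. The other 8 results kept their direction throughout, namely the width and percentile differences for TPA, the share difference for ZnCl2, the 4 differences from GC-rich intergenic regions and the width difference from AT-rich intronic regions. No adjusted p was below 0.05 in any setting, and the lowest was 0.05. Most of this was fixed by the design. The exact permutation p cannot go below 0.333 for treatments, or below 0.0625 for classes with 1 library left out. With the upper 50% of each list, 2 regions were lost with TPA in place of 10 and 70 lost with ZnCl2 in place of 118, the percentile difference for ZnCl2 reversed to 0.145 and that against AT-rich intronic regions to 0.496. With lists of equal length 19 were lost with TPA and 30 gained with ZnCl2. With GC below 40%, 26 were gained and 5 lost with TPA, and 0 gained and 51 lost with ZnCl2. The AP-1 difference from AT-rich intronic regions reversed to -0.986 in the whole merged region and to -0.594 with transcript starts. Without repeated windows 0 were gained with ZnCl2. Leaving out regions over 10 kb changed no direction and no count by over 1.5 times. The cause of these moves was not tested, apart from fewer regions or calls entering the stricter settings.

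Leaving out 1 library at a time, the TPA difference in calls ran from -434.5 to 1238.5, in share from -0.145 to 1.53 percentage points, in width from -475 to -35 bp and in percentile from 1.45 to 5.12. For ZnCl2 these ran from -1593.5 to 79.5 calls, from -2.18 to -0.513 points, from -70 to 430 bp and from -7.3 to -1.49. Regions gained with TPA ran from 78 to 872, lost with TPA from 10 to 449, gained with ZnCl2 from 4 to 139 and lost with ZnCl2 from 120 to 1108. With a library left out the definition of gained or lost has fewer conditions, so these counts cannot fall. Against AT-rich intronic regions the difference in calls shared within a group ran from -0.376 to 0.0296 percentage points.

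Same-numbered libraries are known here to share only a number. Their deviations over the 536 regions called in all 6 correlated at 0.176 for untreated and TPA, -0.179 for untreated and ZnCl2, and -0.0111 for TPA and ZnCl2. For calls over all 3248 regions the correlations were 0.0931, 0.0269 and 0.109 in the same order. The numbers were not taken to pair the libraries, though low correlations cannot show that no batch is shared. With the replicate block, counted within each number and averaged, gains numbered 638.5 and losses 266.5 with TPA, and gains 397 and losses 1130.5 with ZnCl2. With the numbers crossed these were 794.5, 422.5, 119.5 and 853. Both ways of counting set fewer conditions than the main definition, so these counts cannot lie below the main ones. Differences in means are the same under any pairing, and no call changed. Without read counts, absence of a call is not absence of accessibility, and no interval on a single region can be given.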
